A study of Caenorhabditis elegans with 14 samples.

Results

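The polysome association difference compares how strongly a transcript is represented in heavy ribosome fractions relative to total RNA in wild-type and pycr-1(wrm22) Caenorhabditis elegans. Polysomal and total libraries were scaled separately, so each ratio is relative to other transcripts and does not give the share of a transcript's molecules on polysomes. For each gene it is log2(polysomal FPKM / total FPKM) in pycr-1(wrm22) minus the same log2 ratio in wild type (FPKM, fragments mapped per kilobase of transcript, scaled to library size). Genes were taken at 1 FPKM or more in all 4 groups, which held for 11494 of the 41875 genes in the authors' table. Of these, 11261 had 1 gene name and 233 were loci under several names, whose reads the table does not separate. At that limit, F20D6.10 and F49B2.6 lay just inside, each at 1.00 FPKM in wild-type total RNA, and T04A8.18 lay just outside at 0.999 FPKM in pycr-1(wrm22) polysomal RNA.

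Whole-worm lysates of wild type (strain N2) and of pycr-1(wrm22) were each sequenced as total RNA and as polysomal RNA. Polysomal RNA came from sucrose gradient fractions holding 3 or more ribosomes per mRNA. Wild type had 3 total and 3 polysomal libraries, and pycr-1(wrm22) had 4 and 4, which makes 14 in all. All animals were synchronized gravid adults of day 1, raised at 20 °C on OP50 bacteria, about 12000 per harvest, and all were lysed in cycloheximide. No label describes the lesion of the wrm22 allele. The deposited table holds 1 pooled value per gene and group, so the depth and the values of single libraries are unknown. Replicates are separate harvests only as far as the labels' numbering says, so each p-value measures the spread between libraries as the authors' test statistics carry it.

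A messenger RNA carries more ribosomes when initiation is frequent relative to elongation, and transcripts held back by RNA-binding proteins or kept outside the cytoplasm sediment above the heavy fractions. In the worm germline many maternal transcripts are stored under translational repression by proteins such as GLD-1, the PUF proteins and OMA-1, and are released in an ordered way as oocytes mature and embryos begin. Ribosomal protein mRNAs are a classical example of transcripts that move in and out of polysomes as a class, while ribosome assembly depends on a separate set of nucleolar factors. The product of pycr-1, a pyrroline-5-carboxylate reductase, completes the synthesis of proline.

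All 18 marker genes checked for muscle, intestine, epidermis, neurons, oocytes and sperm were at 1 FPKM or more in all 4 groups. The targeted gene did not check the labels by loss of signal. pycr-1 was listed at 4.91 FPKM in wild-type total RNA, 12.6 in wild-type polysomal RNA, 20.3 in pycr-1(wrm22) total RNA and 40.8 in pycr-1(wrm22) polysomal RNA, so it was more abundant in both groups labelled as the mutant. Its log2 ratio of polysomal to total FPKM was 1.36 in wild type and 1.01 in pycr-1(wrm22). Its centred difference of −0.34 ± 0.27 did not pass the test described next. Here and below, centred means less the median of the genes in the same of 20 bins of mean abundance, and ± is a standard error derived from the variances that the authors' test statistics imply. Of these genes, 34.3% were lower and 17.4% higher in pycr-1(wrm22) total RNA at an adjusted p under 0.05, per the authors' deposited table. In whole worms, fewer cells of a type and less RNA per cell cannot be told apart.

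Few single genes passed the test of a difference in polysome association. At an adjusted p under 0.05 (Wald test on variances from the authors' statistics, Benjamini-Hochberg adjustment over 11487 genes), 10 genes were higher in pycr-1(wrm22), which is 0.0871% of those tested, and 9 were lower, which is 0.0783%. Another 7 genes had no variance and were not tested. At an unadjusted p under 0.05, 246 genes lay above their bin median (2.14%) and 169 below (1.47%), together 3.61%. The typical absolute centred difference, a median of 0.153 on the log2 scale, was smaller than the typical standard error of 0.266. Quartiles of the centred difference were −0.15 and 0.16, and 5% of genes lay at each end beyond −0.42 and 0.45. The bin medians themselves ran only from −0.14 to 0.04.

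**Figure D1:**
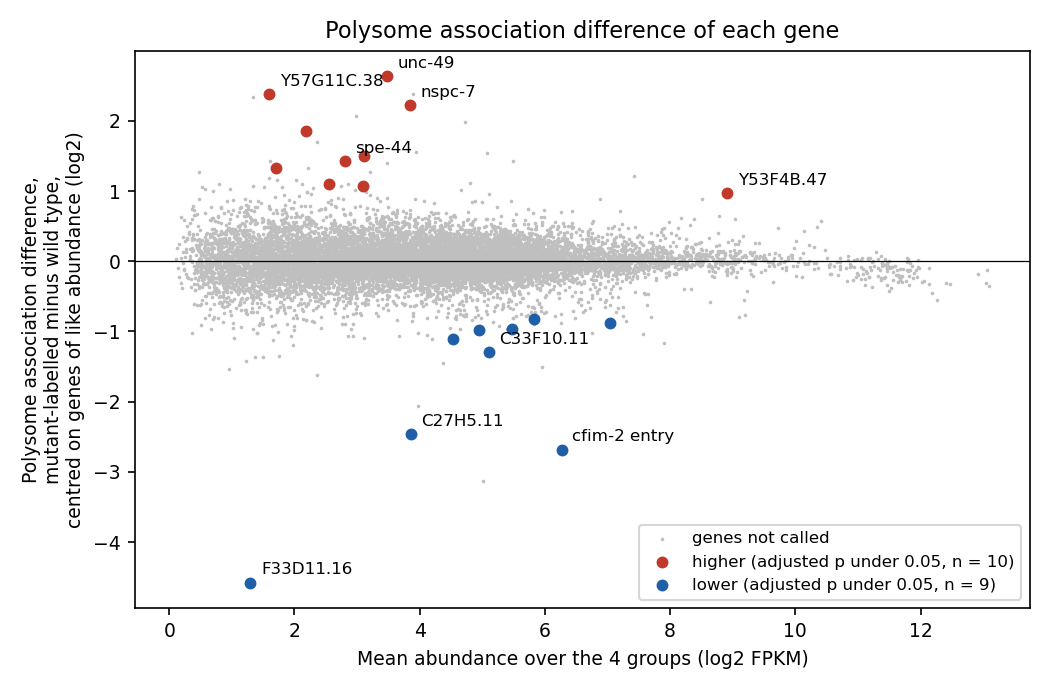
Centred polysome association difference (log2, vertical axis) of each of the genes against its mean abundance over the 4 groups (log2 FPKM, horizontal axis). Grey points did not pass the test; the 10 red points were higher and the 9 blue points lower in pycr-1(wrm22), and the spread of all genes narrows as abundance rises.

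Among the genes that were higher, 2 are regulators of sperm formation. spe-44, a transcription factor that drives sperm gene expression, was listed at 17.2 FPKM in wild-type total RNA and 2.31 in polysomal RNA, against 13.3 and 4.57 in pycr-1(wrm22). Its polysomal FPKM was under its total FPKM in both strains, and its total level was the lower one in pycr-1(wrm22) while its polysomal level was the higher one. Its centred difference was 1.42 ± 0.29. cpb-1, a cytoplasmic polyadenylation element-binding protein needed for spermatogenesis, went the same way, from 22.6 total and 3.23 polysomal FPKM in wild type to 15.9 and 4.55 in pycr-1(wrm22) (centred difference 1.07 ± 0.26). The list of 57 sperm genes outside the major sperm proteins, which includes spe-44, had a median of −0.02, with 25 above and 32 below their bin medians, and the 30 major sperm protein genes had a median of 0.03. The major sperm protein genes are near-identical copies whose reads the counting may have split. By the Wald test on the authors' variances, adjusted p = 0.000771 for spe-44 and adjusted p = 0.0360 for cpb-1.

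dpy-10, a cuticle collagen that shapes the body, was listed at 4.51 FPKM total and 1.57 polysomal in wild type and at 4.38 and 3.68 in pycr-1(wrm22). Total RNA was nearly equal between the strains and the polysomal value was the one that differed. Its centred difference was 1.34 ± 0.32. nspc-7 is a member of a nematode-specific peptide family, on chromosome X at 8541862 to 8542284 (WBcel235, plus strand). It was listed at 14.4 FPKM total and 11.3 polysomal in wild type and at 8.51 and 30.8 in pycr-1(wrm22). Its log2 ratio thus went from −0.35 to 1.86, with a centred difference of 2.22 ± 0.35. Members of that family are close copies, so reads may be shared between them. By the Wald test on the authors' variances, adjusted p = 0.0211 for dpy-10 and adjusted p = 7.68e-07 for nspc-7.

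The highest difference of all belonged to unc-49, which encodes subunits of a GABA-gated chloride channel of muscle, at chromosome III 10520676 to 10532705. The table holds it as 1 locus together with T21C12.12. It was listed at 46.4 FPKM total and 5.62 polysomal in wild type against 9.07 and 6.60 in pycr-1(wrm22). Here the total value was the one that differed, and the polysomal values were close. The centred difference was 2.64 ± 0.35. By the Wald test on the authors' variances, adjusted p = 1.31e-10.

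Y57G11C.38 had the same shape, with 7.62 FPKM total and 2.71 polysomal in wild type and 1.52 and 2.69 in pycr-1(wrm22) (centred difference 2.38 ± 0.39). T09B9.1 went from 13.6 total and 1.83 polysomal to 6.07 and 2.84 (1.85 ± 0.31). K07H8.9 went from 20.1 and 2.60 to 17.5 and 6.16 (1.50 ± 0.30). These 3 are coding genes without a descriptive name and, like cpb-1 and M116.5, were named after their values were seen, as a group was under 5 FPKM. M116.5 was higher, from 6.55 total and 3.24 polysomal FPKM to 7.44 and 7.43 (1.103 ± 0.25). With the Wald test on the authors' variances, adjusted p = 1.70e-06 for Y57G11C.38, adjusted p = 7.08e-06 for T09B9.1, adjusted p = 0.000678 for K07H8.9 and adjusted p = 0.0108 for M116.5.

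The small nucleolar RNA gene Y53F4B.47 completed the genes that were higher. It was listed at 1938 FPKM total and 179 polysomal in wild type and 974 and 160 in pycr-1(wrm22), with a centred difference of 0.98. Its implied standard error of 0.0073 is implausible, since small nucleolar RNAs had a median standard error of 1.82. The authors' deposited table gives it q-values of 0.343, 0.337, 0.170 and 0.803 for polysomal against total RNA in wild type and in pycr-1(wrm22) and for the strains in total and in polysomal RNA. Its call is therefore counted but not relied on. Of the 10 genes that were higher, 7 had a lower total and a higher polysomal value in pycr-1(wrm22), a combination that 3.72% of all genes showed. Calling genes by a large difference favours that combination, so the excess is not a separate result.

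The genes that were lower mostly had the opposite form. Of the 9, 7 had a higher total and a lower polysomal value in pycr-1(wrm22), against 6.26% of all genes, and 2 were lower in both. The way the genes were called favours this form too. C33F10.11, on chromosome II at 4834145 to 4834834 (minus strand), was listed at 47.7 FPKM total and 25.3 polysomal in wild type and at 72.5 and 16.1 in pycr-1(wrm22) (centred difference −1.30 ± 0.26). R10E4.7 went from 24.3 and 20.0 to 38.5 and 15.1 (−1.11 ± 0.26). C05B5.2 went from 45.1 and 42.9 to 63.8 and 31.7 (−0.97 ± 0.24). With the Wald test on the authors' variances, adjusted p = 0.000678 for C33F10.11, adjusted p = 0.0157 for R10E4.7 and adjusted p = 0.0360 for C05B5.2.

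These 3 are short coding genes, with coding lengths of 546, 591 and 555 bases against a median of 1104 over all genes. C33A12.3, in 1 locus with smy-2, kept a polysomal value near 50.3 in wild type and 47.5 in pycr-1(wrm22) while its total value was 50.6 and 85.5 (−0.83 ± 0.20). For this locus the Wald test on the authors' variances gave adjusted p = 0.0345.

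The other form, lower in both fractions and more so in polysomes, belonged to memi-3 and W05F2.3. memi-3 encodes a regulator of the meiosis-to-mitosis transition of the fertilized egg. It was listed at 101 FPKM total and 22.6 polysomal in wild type and at 58.0 and 6.72 in pycr-1(wrm22) (centred difference −0.99 ± 0.24). W05F2.3 was listed at 224 and 187 in wild type and at 130 and 55.3 in pycr-1(wrm22), so its log2 ratio went from −0.26 to −1.23 (−0.88 ± 0.22). For memi-3 the Wald test on the authors' variances gave adjusted p = 0.0345 and for W05F2.3 adjusted p = 0.0360.

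The remaining 3 lower genes fall outside the rule by which genes were named, for a low FPKM or several names, and are given because they complete the count. F33D11.16, a coding gene of chromosome I, was listed at 1.08 FPKM total and 2.05 polysomal in wild type and at 14.6 and 1.13 in pycr-1(wrm22). Most of its difference comes from the total value, with log2 differences between the strains of 3.75 in total and −0.85 in polysomal RNA (−4.58 ± 0.69). The locus that holds cfim-2, a subunit of the mRNA 3′ end cleavage factor, with D1046 genes, was listed at 86.3 and 33.2 in wild type and at 461 and 26.8 in pycr-1(wrm22) (−2.68 ± 0.62). The small nuclear RNA gene C27H5.11 went from 66.7 and 6.16 to 80.2 and 1.34 (−2.46 ± 0.61). From the Wald test on the authors' variances, adjusted p = 1.08e-07 for F33D11.16, adjusted p = 0.0157 for the cfim-2 locus and adjusted p = 0.0369 for C27H5.11.

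Differences of whole gene classes were small beside those of the called genes, but in some classes nearly all members lay on one side. Of 48 gene lists, 5 had a median centred difference of 0.1 or more and 9 of −0.1 or less, and 46 had no member that passed the test. List medians are descriptions of these pooled values and carry no test.

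**Figure D2:**
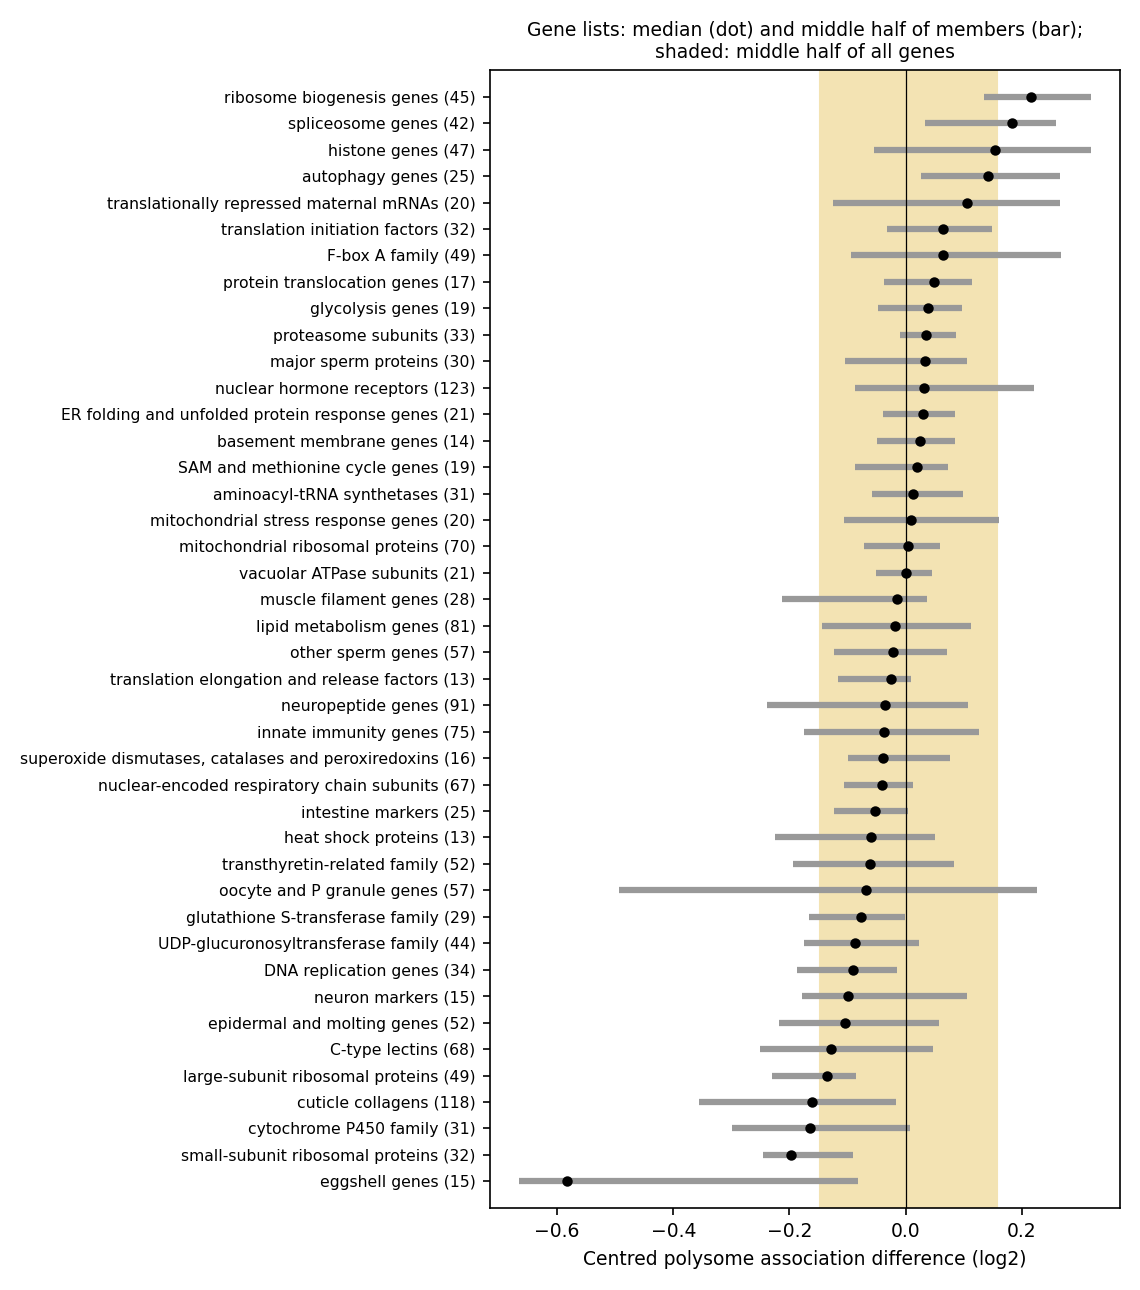
Median (dot) and quartiles (grey bar) of the centred polysome association difference (log2, horizontal axis) in each gene list of at least 10 members, with the number of members in brackets and the quartiles of all genes shaded. Eggshell genes have the lowest median, −0.58, and ribosome biogenesis genes the highest, 0.22.

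Cytosolic ribosomal protein genes lay below genes of like abundance almost throughout. Of 81 genes, 73 were below their bin median, which is 90.1% against 49.9% of all genes, with a median centred difference of −0.16. None passed the test at an adjusted p under 0.05, and 3 lay below and 2 above at an unadjusted p under 0.05. Over all genes tested, 1.47% lay below and 2.14% above at that unadjusted p. The median log2 ratio of polysomal to total FPKM was 0.44 in wild type and 0.11 in pycr-1(wrm22). Before centring, the median difference was −0.34 for the small subunit and −0.28 for the large subunit. The bins of the most abundant genes, to which most of them belong, hold these genes too, so that centring takes away part of what they share.

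The authors' deposited table called none of the 81 in total RNA, against 34.3% of all genes lower and 17.4% higher. Their median log2 fold change was −0.05 in total RNA and −0.37 in polysomal RNA. In the small subunit 31 of 32 genes lay below, with a median of −0.20. In the large subunit 42 of 49 did, with a median of −0.14. rpl-36 was listed at 4186 FPKM total and 6489 polysomal in wild type and at 4711 and 4504 in pycr-1(wrm22).

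For rpl-36 the polysomal excess over total RNA seen in wild type was no longer there in pycr-1(wrm22) (−0.55 ± 0.21). rps-10 had 2739 and 3816 in wild type and 2669 and 2511 in pycr-1(wrm22) (−0.42 ± 0.21). The paralogues rpl-11.2 and rpl-25.1 were the main exceptions, the second chosen after its value was seen. rpl-11.2 was listed at 838 and 253 in wild type and at 938 and 388 in pycr-1(wrm22) (0.60 ± 0.21). rpl-25.1 had 324 and 64.1 against 409 and 107 (0.49 ± 0.23). Both had low log2 ratios of polysomal to total FPKM, −1.73 and −2.34 in wild type against a median of 0.44 for the 81 genes, and reads may be shared with their partner genes. For rpl-36 the Wald test on the authors' variances gave adjusted p = 0.744 and for rpl-11.2 adjusted p = 0.521.

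Ribosome biogenesis genes, the nucleolar factors and RNA polymerase I subunits that make and assemble rRNA, lay on the other side. Of 45, 42 were above their bin median, with a median of 0.22 and none at an adjusted p under 0.05. Their median log2 ratio went from 0.12 in wild type to 0.24 in pycr-1(wrm22). The centred difference exceeded 0.3 in 12 of them, which is 26.7% against 12.2% of all genes. rpoa-12, a polymerase I subunit, was listed at 60.1 FPKM total and 30.7 polysomal in wild type and at 34.4 and 30.95 in pycr-1(wrm22) (0.77 ± 0.26). nol-10, a nucleolar protein, had 68.6 and 41.1 against 42.3 and 37.2 (0.52 ± 0.21). For rpoa-12 the Wald test on the authors' variances gave adjusted p = 0.452.

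In both the total value differed more between the strains than the polysomal one. In total RNA 26 of the 45 were lower in pycr-1(wrm22) and none higher by the authors' deposited table, against 34.3% and 17.4% of all genes. Their median log2 fold change was −0.43 there and −0.23 in polysomal RNA. Mitochondrial ribosomal protein genes, the third class of the ribosome, showed no such tilt, with 37 of 70 above, 33 below and a median of 0.00.

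**Figure D3:**
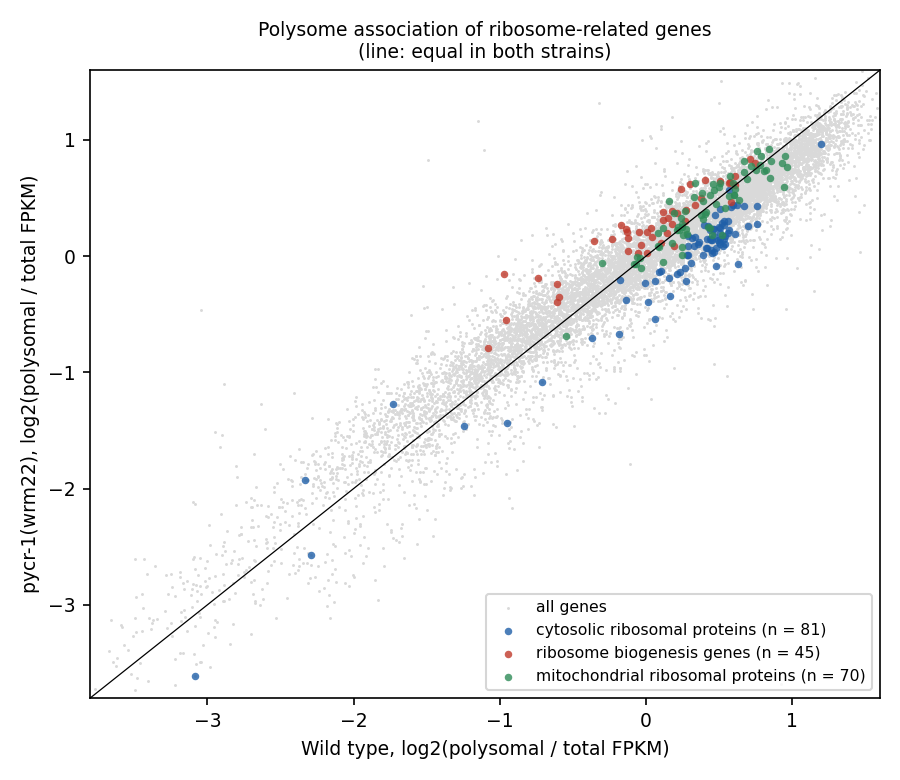
log2(polysomal / total FPKM) of each gene in pycr-1(wrm22) (vertical axis) against wild type (horizontal axis), for cytosolic ribosomal proteins (blue), ribosome biogenesis genes (red), mitochondrial ribosomal proteins (green) and all genes (grey). Most blue points lie under the line of equality and most red points lie on or above it; genes beyond the axes are not drawn.

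Matched on abundance alone, other parts of the translation machinery had medians nearer 0, as had proteasome and nuclear-encoded respiratory chain subunits. The 32 initiation factors had a median of 0.07, with 22 above, and the 31 aminoacyl-tRNA synthetases one of 0.01, with 19 above. The 13 elongation and release factors had a median of −0.03. The 33 proteasome subunits had a median of 0.03, with 23 above. The 67 nuclear-encoded respiratory chain subunits had a median of −0.04, with 46 below, and the 8 subunits encoded by the mitochondrial genome had −0.14, with 7 below. Matching also on mean polysome association, described last, turned the respiratory chain median to 0.03, with 40 above, and gave 0.15 for initiation factors, with 26 above, 0.11 for proteasome subunits, with 30 above, and −0.30 for the mitochondrial genome. It also turned that of elongation and release factors to 0.04.

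Genes of RNA processing resembled those of ribosome biogenesis. Of 42 spliceosome genes, 33 lay above, with a median of 0.18. rsp-3, a serine- and arginine-rich splicing factor, was listed at 292 and 279 in wild type and at 183.8 and 220 in pycr-1(wrm22) (0.47 ± 0.21). rsp-6, of the same family, had 202 and 188 against 120 and 146 (0.48 ± 0.21). The authors' deposited table called 38 of the 42 lower in total RNA, against 34.3% of all genes.

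Autophagy genes had 20 of 25 members above and a median of 0.14. atg-18, which binds membrane phosphoinositides during autophagosome formation, was listed at 62.2 FPKM total and 22.4 polysomal in wild type and at 40.9 and 22.9 in pycr-1(wrm22) (0.60 ± 0.22). atg-9, the transmembrane autophagy protein, had 48.8 and 15.7 against 31.6 and 14.9 (0.51 ± 0.25). Histone genes had 34 of 47 above and a median of 0.15, but replication-dependent histones are near-identical copies and their mRNAs sit at low ratios in both strains, with medians of −2.95 and −2.82. DNA replication genes lay mostly below, 26 of 34, with a median of −0.09. The authors' deposited table called all 34 lower in total RNA, against 34.3% of all genes. The only 2 members at an unadjusted p under 0.05 lay above, as 2.14% of all genes did. They were rnr-2 at 0.48 ± 0.22 and orc-1 at 0.46 ± 0.23. With matching also on mean polysome association the medians were 0.05 for autophagy genes, 0.07 for histone genes and −0.20 for DNA replication genes.

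The eggshell list had the lowest median of all lists, −0.58. Of 15 genes, 11 lay below their bin median and 10 lay below −0.3, against 9.85% of all genes below −0.3. At an unadjusted p under 0.05, 9 were lower and none higher, against 1.47% of all genes lower, and none passed at an adjusted p under 0.05. The median log2 ratio of polysomal to total FPKM went from −0.86 in wild type to −1.56 in pycr-1(wrm22). cpg-1, a chondroitin proteoglycan of the eggshell, was listed at 1162 FPKM total and 698 polysomal in wild type and at 671 and 214 in pycr-1(wrm22) (−0.77 ± 0.22). For cpg-1 the Wald test on the authors' variances gave adjusted p = 0.147.

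egg-4, a pseudophosphatase of egg activation, had 73.0 and 19.3 against 44.2 and 7.40 (−0.70 ± 0.23). Its near-identical partner egg-5, named after its value was seen, had −0.65 ± 0.23. Both fractions were lower in pycr-1(wrm22) and the polysomal one by more. The eggshell genes perm-2, perm-4 and cpg-3, also chosen after seeing the values, had centred differences of 0.02, 0.04 and 0.08 and were polysome-rich in both strains, at log2 ratios between 0.86 and 1.16. In total RNA 13 of the 15 genes were lower by the authors' deposited table, against 34.3% of all genes. Their median log2 fold change was −0.86 there and −1.38 in polysomal RNA. The oocyte markers oma-1, rme-2 and puf-5 were also lower in total RNA, at 105, 445 and 339 FPKM in wild type against 56.9, 201 and 152 in pycr-1(wrm22), and the part of oocyte content in the result was not tested. For egg-4 the Wald test on the authors' variances gave adjusted p = 0.341.

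The oocyte and P granule list had members on both sides. It held 57 genes, 6 of them egg genes shared with the eggshell list, and its median was only −0.07, with 31 genes below and 26 above. Its members spread to both sides more than genes in general did. Below −0.3 lay 40.4% of them against 9.85% of all genes, and above 0.3 lay 19.3% against 12.2%. At an unadjusted p under 0.05, 17 were lower and 1 was higher, and none passed at an adjusted p under 0.05. Over all genes tested, 1.47% were lower and 2.14% higher at that unadjusted p.

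oma-1, a zinc-finger RNA-binding protein of oocyte maturation, was listed at 105 FPKM total and 54.8 polysomal in wild type and at 56.9 and 18.2 in pycr-1(wrm22) (−0.74 ± 0.22). The following members were chosen after their values were seen. oma-2 had 132 and 68.9 against 57.7 and 18.97 (−0.65 ± 0.22). rme-2, the yolk receptor of oocytes, had 445 and 221.6 against 201 and 69.3 (−0.45 ± 0.21). For oma-1 the Wald test on the authors' variances gave adjusted p = 0.182.

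Also below were meg-1 at −0.67 ± 0.23 and meg-3 at −0.63 ± 0.25, which encode disordered P granule proteins of the embryo, and puf-3, a PUF RNA-binding protein of late oocytes, at −0.54 ± 0.26. mex-3 and mex-5, RNA-binding proteins that pattern the early embryo, had −0.49 ± 0.21 and −0.42 ± 0.21. Other members lay above. gld-1, the meiotic translational repressor, was listed at 400 and 260 in wild type and at 237 and 183 in pycr-1(wrm22) (0.40 ± 0.21). glp-1, the Notch receptor of germline stem cells, had a polysomal value of 18.8 against 15.5 (0.42 ± 0.22), and fbf-1, a PUF protein of those cells, had 0.39 ± 0.23.

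pgl-1 and deps-1, constitutive P granule components, had 0.41 ± 0.21 and 0.40 ± 0.21. mbk-2, a kinase of the oocyte-to-embryo transition, was the 1 member above at an unadjusted p under 0.05, with 0.52 ± 0.22. In total RNA 52 of the 57 were lower and none higher by the authors' deposited table, against 34.3% and 17.4% of all genes. Their median log2 fold change there was −0.82. Total RNA was thus lower for the members on both sides of the list.

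**Figure D4:**
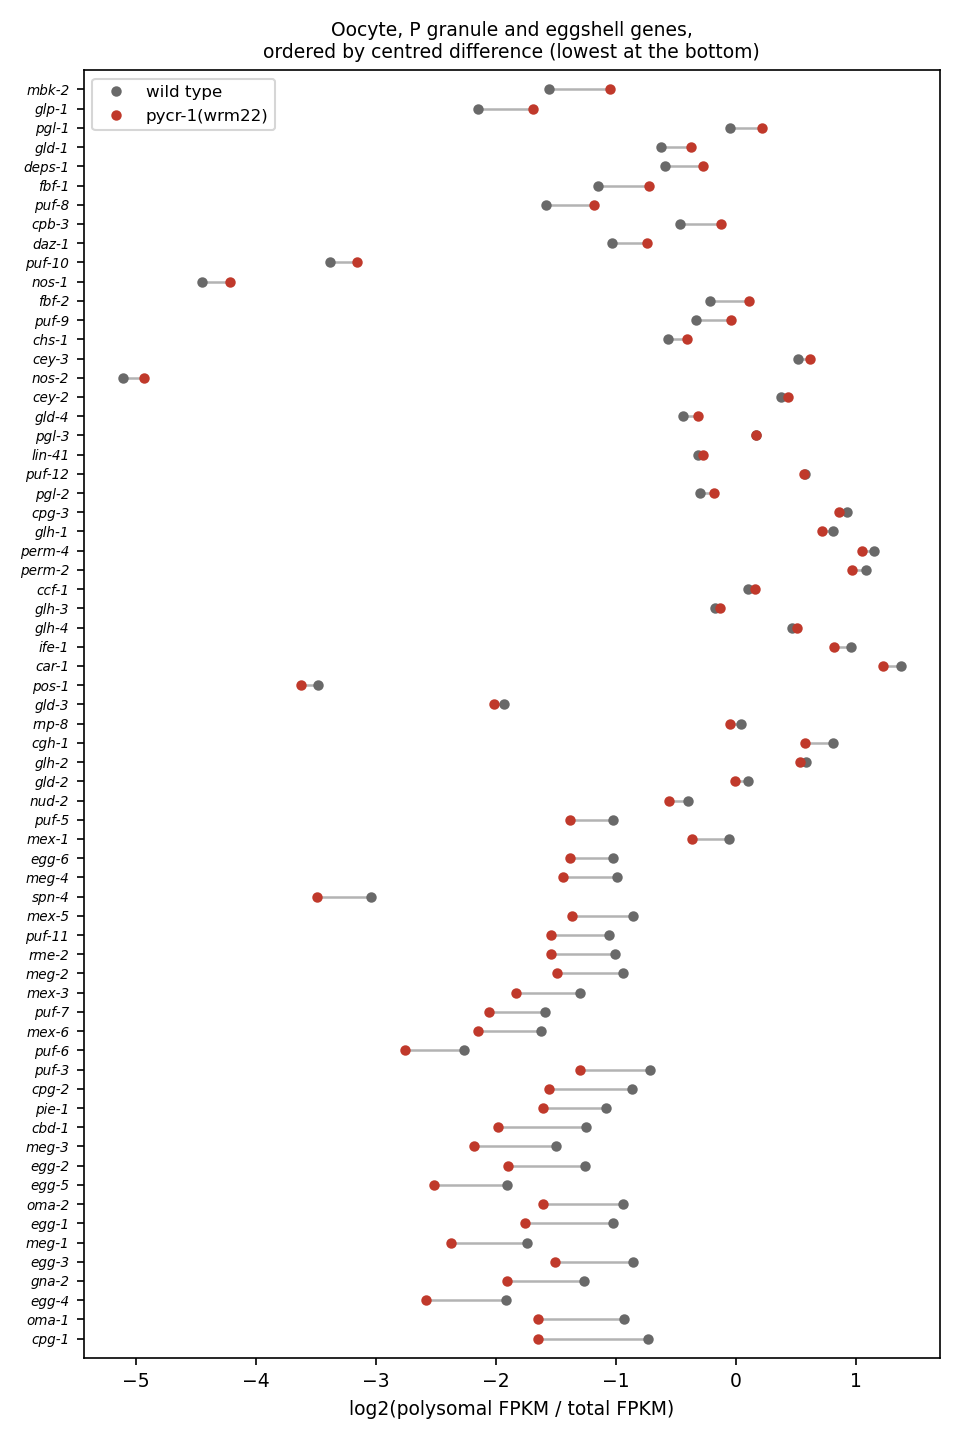
log2(polysomal FPKM / total FPKM) in wild type (dark points) and pycr-1(wrm22) (red points) for each oocyte, P granule and eggshell gene, ordered by centred difference with the lowest at the bottom. The red point lies to the left for cpg-1, oma-1 and the egg genes at the bottom, and to the right for mbk-2, glp-1, pgl-1 and gld-1 at the top.

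A group of maternal mRNAs known to be under translational repression, 20 genes, had 12 members above and 8 below and a median of 0.10. tra-2, a sex determination receptor repressed through its mRNA, was listed at 29.04 and 6.33 in wild type and at 16.8 and 5.35 in pycr-1(wrm22) (0.60 ± 0.26). gna-2, an enzyme of eggshell chitin precursor synthesis, had 98.5 and 40.9 against 48.9 and 13.02 (−0.68 ± 0.23). The median of the list changed sign with 5 FPKM as the minimum, at −0.060, so no direction is given for it. The 6 yolk protein genes, made in the intestine for the oocyte, all lay above their bin medians but by little, between 0.03 and 0.08. Before centring their median difference was −0.09. Over the 14 settings compared the median ran from −0.09 to 0.15, so no direction is given for them.

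Cuticle collagens were below genes of like abundance in 93 of 118 cases, with a median of −0.16. Under −0.3 lay 30.5% of them, against 9.85% of all genes. The 1 that passed the test, dpy-10, went the other way. Their median log2 ratio was 0.84 in wild type and 0.59 in pycr-1(wrm22), so they were polysome-rich in both strains. In total RNA 71 were higher and 19 lower by the authors' deposited table, against 17.4% and 34.3% of all genes. Their median log2 fold change was 1.16 there and 1.00 in polysomal RNA. The 52 epidermal and molting genes had a median of −0.10, with 36 below, and one of −0.03 with matching also on mean polysome association.

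Among families of secreted and detoxifying proteins no member passed the test, and medians were below 0 with matching on abundance. The 31 cytochrome P450 genes had a median of −0.16, with 22 below. The 68 C-type lectins had −0.13, with 47 below, the 44 UDP-glucuronosyltransferases −0.09, with 31 below, and the 29 glutathione S-transferases −0.08, with 22 below. With matching also on mean polysome association the medians were −0.08 for cytochrome P450 genes, −0.05 for C-type lectins, 0.01 for UDP-glucuronosyltransferases, with 23 of 44 above, and 0.00 for glutathione S-transferases, with 16 of 29 below, so no direction is given for the last 2 families. The 6 genes of proline synthesis and breakdown had a median of −0.15, with 4 below, and the next after pycr-1 by unadjusted p was prdh-1, the proline dehydrogenase, at −0.27 ± 0.27. The median of these 6 genes was −0.05 with matching also on mean polysome association, with 3 below and 3 above, and −0.02 with 5 FPKM as the minimum. The 19 genes of the methionine cycle had a median of 0.02, with 10 above.

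Among non-coding RNAs, small nuclear RNAs lay below in 20 of 22 cases, with a median of −0.65, which is under their median standard error of 0.729, and C27H5.11 passed the test. Small nucleolar RNAs had a median of 0.27, with 40 of 64 above, but their median standard error of 1.82 exceeds that. Both classes had low median log2 ratios of −3.99 and −4.11 in wild type. By chromosome, 57.6% of genes on X lay below, with a median of −0.04, and 42.4% of those on III, with a median of 0.04. With matching also on mean polysome association the median for X was 0.0003, with 746 below and 752 above. That for III was then 0.02, with 880 below and 1030 above. No direction is therefore given for X.

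Polysome association itself was spread less widely in pycr-1(wrm22). The standard deviation across genes of log2(polysomal / total FPKM) was 1.01 in wild type and 0.936 in pycr-1(wrm22). When genes were divided into 5 equal groups by their mean ratio over the strains, the median centred difference was 0.15 in the least polysomal group, 0.08, 0.01 and −0.05 in the next 3, and −0.10 in the most polysomal group. The share of genes below their bin median went from 30.7% to 74.1%. The mean and the difference come from the same 4 values per gene, so this order is a description.

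Length followed a weaker gradient. By coding length the medians ran from −0.04 in the shortest group to 0.04 in the longest, and by 3′ UTR length from −0.08 to 0.04. 5′ UTR length gave no steady order, with medians between −0.03 and 0.02.

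**Figure D5:**
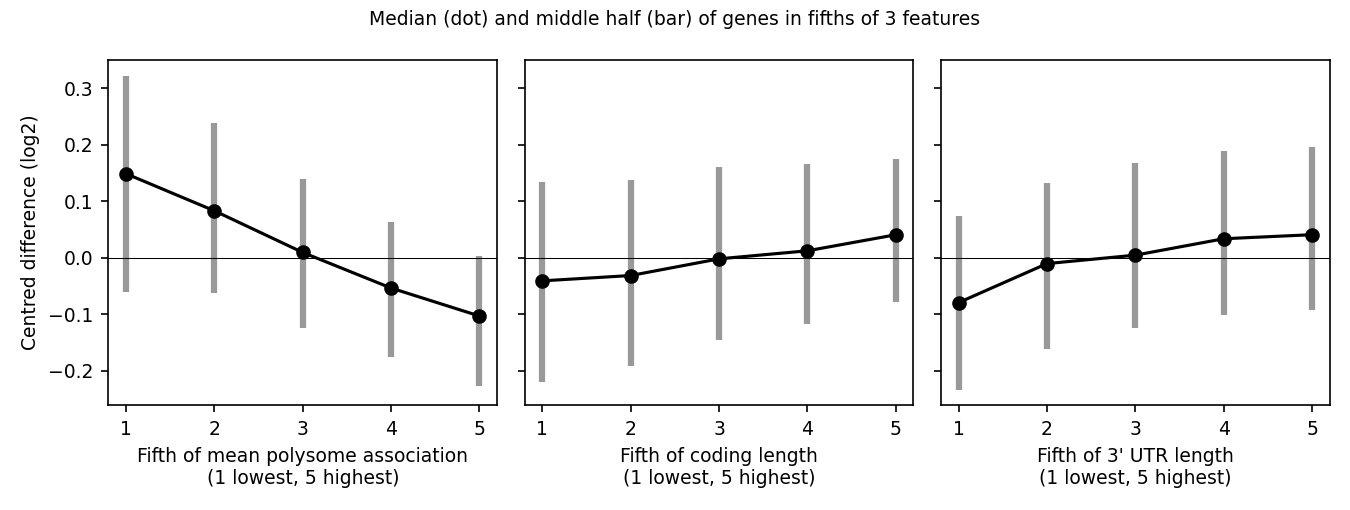
Median (dot) and quartiles (bar) of the centred polysome association difference (log2, vertical axis) of genes in 5 equal groups, from lowest to highest, of mean polysome association, coding length and 3′ UTR length. The median falls from 0.15 to −0.10 over mean polysome association and rises slightly over both lengths.

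Because classes differ in polysome association, the difference was also taken against genes alike in both abundance and mean association, an alternative chosen after seeing the data. Then 9 genes were higher, 0.0783% of those tested, and 40 were lower, 0.348%. Of the original 19 calls, 18 were shared. The genes below included 5 members of the eggshell and oocyte lists, some of them in both lists, with cpg-1 at −0.89 ± 0.22, oma-1 at −0.87 ± 0.22, with egg-4, egg-1 and gna-2 among them. The B-type cyclin genes cyb-2.1 and cyb-2.2, near-identical copies, were at −1.03 ± 0.24 and −0.89 ± 0.22, and memi-1 joined memi-3 at −0.96 ± 0.25. In this match the Wald test on the authors' variances gave adjusted p = 0.0199 for cpg-1, adjusted p = 0.0278 for oma-1 and adjusted p = 0.0436 for each of egg-4, egg-1 and gna-2.

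The glutamine synthetase genes gln-5 and gln-6 were at −0.93 ± 0.22 and −0.81 ± 0.22. Of the 40, 24 were lower in both fractions in pycr-1(wrm22), and 16 had a higher total and a lower polysomal value. sss-1 and gipc-1 were among the latter, with sss-1 at 108 and 70.4 in wild type against 151 and 54.7 in pycr-1(wrm22). The eggshell median was then −0.77, the median of cytosolic ribosomal protein genes −0.15, with 68 of 81 below, and that of ribosome biogenesis genes 0.22, with 43 of 45 above. The median of cuticle collagens was −0.07, with 72 of 118 below.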

How the data were processed

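Total and polysomal RNA of 14 libraries in 4 groups was analysed from the authors' deposited gene table, whose 6 pairwise comparisons give 1 FPKM value per gene and group, log2 fold changes, a test statistic (a score) and p-values with q-values, per the file headers. The submitters' processing notes name Cuffdiff 2.2.1, StringTie 1.3.4d, HISAT2 2.1.0 and FastQC 0.11.7 on WBcel235; settings and strandedness are not given in the sources used here, and therefore overlapping genes are uncertain. Names and features came from Ensembl release 115.

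The difference of the log2 ratios, less the median of its abundance bin, was divided by a standard error (Wald test, Benjamini-Hochberg adjustment). That error came from the 4 group variances that the deposited scores imply, each divided by its number of libraries and added as if independent. Simulated data with independent noise from the same variances were also tested, which cannot check those variances. There, 53% of 100 genes with a log2 change of 1 were recovered, and 92% of 100 with a change of 2. No exact test over libraries could be made, since no value per library was used. Among genes with a deposited p between 0.001 and 0.01, the deposited median p for wild-type polysomal against total RNA was 0.0031. Recomputed by the Wald test, it was 0.00273 with divided and 0.0836 with undivided variances. For the strains in total RNA the same medians were 0.00315, 0.00214 and 0.101. In every comparison checked, the divided variances gave a smaller median p than the deposited one. Python 3.11.15, numpy 2.4.6, pandas 2.3.3, scipy 1.17.1 and matplotlib 3.10.9 were used. Members and gene lists were chosen with earlier results of these data known. The text names up to 10 called genes in each direction with 1 entry in the table's gene name field and 5 FPKM or more in all groups (which admits the unc-49 and C33A12.3 loci, each with a second identifier), up to 4 called members per list or else the 1 or 2 with the smallest p, and pycr-1; called genes below 5 FPKM, and others so marked or named under the association match, were added after seeing values. Protein composition was not analysed here.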

Additional observations from a re-analysis of the deposited data

Results flagged for a closer look

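Each gene whose polysome to total ratio differed between the strains by the test of that difference is a result to look at again; the values are centred differences on the log2 scale. Lower in pycr-1(wrm22) were F33D11.16 at −4.58, the cfim-2 locus at −2.68, C27H5.11 at −2.46, C33F10.11 at −1.30, R10E4.7 at −1.11, memi-3 at −0.99, C05B5.2 at −0.97, W05F2.3 at −0.88 and the C33A12.3 locus at −0.83. Higher were Y53F4B.47 at 0.98, cpb-1 at 1.07, M116.5 at 1.103, dpy-10 at 1.34, spe-44 at 1.42, K07H8.9 at 1.50, T09B9.1 at 1.85, nspc-7 at 2.22, Y57G11C.38 at 2.38 and the unc-49 locus at 2.64. No single-library value stands behind any of them in the deposited table as used here.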

How the results depend on the processing

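No paired analysis was possible because the table holds 1 pooled value per gene and group, so the numbered total and polysomal libraries could not be matched, and no library could be left out. When the implied variances were not divided by the number of libraries, the counts of 10 genes higher and 9 lower became 1 and 0. The 1 gene left was Y53F4B.47, whose standard error is implausible and whose call is not relied on. With divided variances, 415 genes had an unadjusted p under 0.05 in the Wald test. With 5 FPKM as the minimum, 10 of the 19 earlier calls were still present and all 10 were called again, 3 of them higher. The other earlier calls left the set for a group under 5 FPKM and did not fail the test. With matching on mean polysome association 40 were lower, and with matching on coding length 4 were lower, both chosen after seeing the data. Matching on coding length keeps only coding genes with 1 identifier. Of the 19 earlier calls, 14 were present there and 12 were called again. The count of 40 is a description, since the matched mean and the tested difference come from the same values of each gene. The median of the translationally repressed maternal mRNAs changed sign to −0.060 with 5 FPKM as the minimum and to −0.052 with matching on association; the cause was not tested. In the other settings both counts stayed within 1.5 times. memi-3 and cpb-1 lost their calls in 5 settings each, C05B5.2 in 4, W05F2.3 in 3 and C27H5.11 in 2. List medians stayed below 0 in all 14 settings for small- and large-subunit ribosomal proteins, cuticle collagens and eggshell genes, and above 0 for ribosome biogenesis, spliceosome, autophagy and histone genes.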

Other observations

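Over 444 Gene Ontology terms with at least 20 genes, described without a test, the lowest median centred differences were those of structural constituents of the cuticle, at −0.16 with 95 of 121 genes below, oxygenases of the paired-donor type, at −0.16 with 25 of 38 below, and cytoplasmic translation, at −0.15 with 21 of 23 below. Acid phosphatases followed at −0.14, with 18 of 22 below. The highest medians were those of axon guidance, at 0.27 with 19 of 27 above, the small-subunit processome, at 0.24 with 29 of 33 above, rRNA processing, at 0.20 with 49 of 60 above, tRNA processing, at 0.19 with 35 of 41 above, and RNA splicing, at 0.18 with 37 of 49 above. Terms share genes with each other and with the lists above. The medians of terms were matched on abundance only, not also on mean polysome association. In wild type the median log2 ratio was 0.84 for cuticle constituents and −0.72 for axon guidance, against 0.12 over all genes. The part of mean polysome association in the order of the terms was not tested.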
